A study of Mus musculus with 6 samples.

Results

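SR proteins and heterogeneous nuclear ribonucleoproteins (hnRNPs) were followed in L929 cells, a mouse fibroblast line long used to study killing by tumour necrosis factor, after a 12 h exposure to TNF-α with actinomycin D. The members are the protein-coding genes of the deposited table whose symbol starts with Srsf and a digit or with Hnrnp. They number 31 of 54532 genes listed, of which 22046 are protein-coding. Of the 31, 11 are SR proteins and 20 are hnRNPs. Treated cells received 10 ng/ml TNF-α, an inflammatory cytokine, and 1 µg/ml actinomycin D, which binds DNA and blocks transcription, and control cells are labelled as controls of the same wild-type line. Each group holds 3 RNA sequencing libraries. No group received either agent alone, so what is reported belongs to the combination. The labels carry the treatment text on every sample, and groups were taken from the titles and the treatment label.

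SR proteins bind exonic enhancer sequences through RNA recognition motifs and recruit the splicing machinery through a domain rich in arginine and serine, which kinases and phosphatases keep in a cycle of phosphorylation. The hnRNPs coat nascent transcripts, often silence the exons that SR proteins promote, and carry on into mRNA export, stability and translation. Many genes of both families limit their own protein by splicing in an exon that sends the transcript to nonsense-mediated decay.

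Library totals ran from 16056207 to 18036322 counts. At least 1 count was found for 15705 to 18849 genes in treated and for 19219 to 20116 genes in control libraries. The labels do not name separate cultures, and p-values therefore reflect spread among libraries that may be technical. Of 13 fibroblast markers, 11 had counts, with a summed level of 12137 to 16128 CPM (counts scaled by the library total) in treated libraries and 9989 to 11411 CPM in control libraries; Dcn and Lum were at 0. Vim and collagen genes made up most of that sum, while Pdgfrb had 457 to 502 counts in treated and 1632 to 2042 in control libraries, and Pdgfra 56 to 83 counts in treated and 401 to 509 in control libraries. Of 7 macrophage markers, 6 had counts and summed to 41.5 to 44.96 CPM in treated and 10.9 to 12.8 CPM in control libraries, mostly Cd68, Lyz2 and Cd14, while Itgam was at 0 and Ptprc and Adgre1 had 1 count each over all libraries. Lymphocyte markers summed to at most 1.34 CPM, epithelial markers to at most 8.19 CPM and endothelial markers to at most 0.776 CPM in any library. The part of macrophage-type markers in the results was not tested.

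In treated cells most SR protein mRNAs fell on the TMM scale, with a median below that of all tested genes. They lay within the range of the other genes, from percentile 14.6 (Srsf4) to 54.4 (Srsf6) of the log2 fold change. On the same scale the hnRNP mRNAs divided into members that rose and members that fell. Under TMM scaling, 9 of 10 tested SR proteins fell, none rose and 1, Srsf6, did not pass an adjusted p of 0.05 (edgeR quasi-likelihood test, Benjamini-Hochberg over 13290 tested genes). Among 20 hnRNPs, 7 rose, 7 fell and 6 did not pass. Over all tested genes 34.6% were called higher and 40.2% lower, 74.8% in either direction beside 23 of the 30 tested members, so 9 of 10 is a larger share of falls than the background, and the hnRNP split lies near it. At least 2-fold, 5 SR proteins and 2 hnRNPs fell against a background of 33.1%, and 2 hnRNPs and no SR protein rose against 27.1%. The treated and control CPM values did not overlap for 23 of the 30 tested members, beside 77.9% of all tested genes. Treated values lay wholly above for 7 members, beside 35.9% of genes, and wholly below for 16, beside 42% of genes. The median log2 fold change was −0.90 for SR proteins and 0.017 for hnRNPs, beside −0.18 for all tested genes. In bulk samples, fewer cells of a type and less RNA per cell cannot be told apart.

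The zero of this scale moved with the scaling. A change of library factors moves all genes by nearly the same amount, so the distance of SR proteins from the other genes could move little under it. Against the all-gene median, the SR protein median lay 0.73 lower and the hnRNP median 0.19 higher on the log2 scale. When only library size was used, the median of all genes shifted by −1.04, 10 SR proteins and 15 hnRNPs were called lower, beside 59.6% of all tested genes, and 1 hnRNP was called higher, beside 17.1%. Holding cytosolic ribosomal protein genes equal shifted it by −2.39, and holding mitochondrially encoded genes equal shifted it by −2.15; under either, 10 SR proteins and 19 hnRNPs were called lower and no member higher. The share of all tested genes called lower was then 82.4% with ribosomal protein genes and 77.8% with mitochondrially encoded genes held equal, and 1.86% and 2.51% were called higher, so these counts of hnRNPs say little about the family. Gene length had a Spearman correlation of −0.39 with the log2 fold change over 11440 protein-coding genes. The correlation was −0.09 over the 30 tested members, −0.0061 over the 10 SR proteins and −0.34 over the 20 hnRNPs. Removing the trend with gene length left 6 SR proteins and 2 hnRNPs lower and 2 SR proteins and 16 hnRNPs higher. Of all tested genes, 34.3% were lower and 37.2% higher under that fit. The SR protein median stayed 0.63 to 0.84 below the all-gene median over 23 of the 24 settings run. The hnRNP median stayed 0.07 to 0.55 above it. Where only the library factors differ, these distances were nearly fixed in advance. With the length trend removed they were −0.84 for SR proteins and 0.53 for hnRNPs. Of the 30 tested members, 6 were called lower under each of the 24 settings, namely Srsf1, Srsf2, Srsf3, Srsf4, Hnrnpdl and Hnrnpf, and 0 were called higher under each. SR proteins took 0.0651% to 0.0933% of a treated library's counts and 0.256% to 0.282% of a control library's, and hnRNPs took 0.519% to 0.670% of a treated library's and 0.713% to 0.830% of a control library's.

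**Figure D1:**
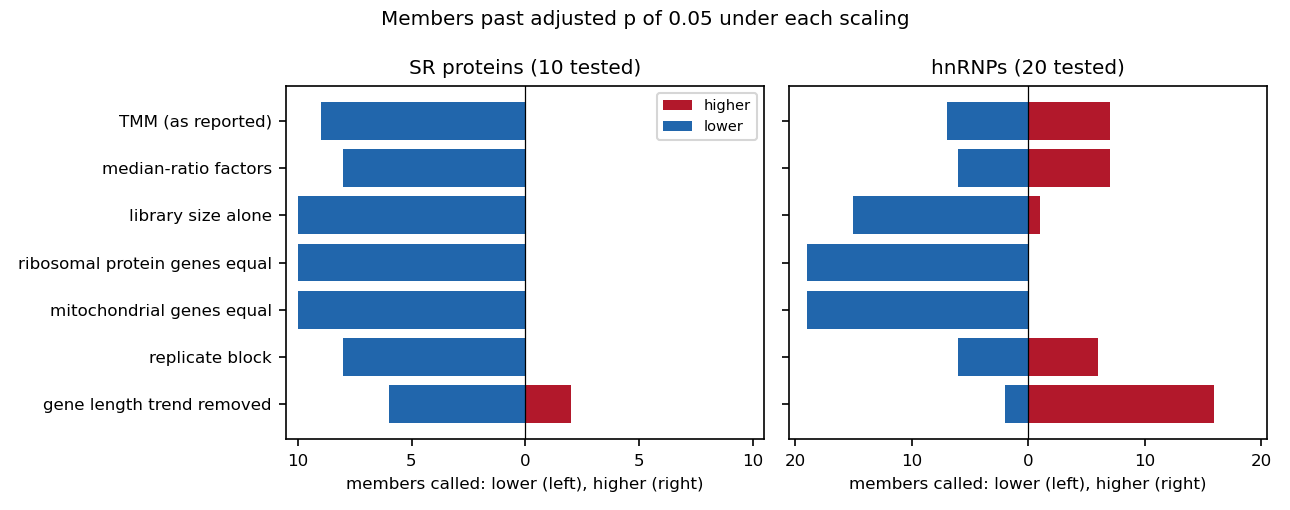
Number of SR proteins (left panel, 10 tested) and hnRNPs (right panel, 20 tested) called lower (bars to the left) or higher (bars to the right) in treated against control libraries under 7 ways of fitting the counts. SR proteins are mostly lower under each, while hnRNPs change from 7 higher and 7 lower under TMM to 19 lower when ribosomal protein genes are held equal and 16 higher when the gene length trend is removed.

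Srsf4 had the largest fall among SR proteins. This gene, on chr4:131873617-131901706 (GRCm38, plus strand), encodes SRp75, an SR protein with a long arginine and serine domain. Its level was 5.83, 2.65 and 4.35 CPM in treated libraries, against 20.5, 18.8 and 21.3 CPM in control libraries. All treated values lie below all control values, with a log2 fold change of −2.24 ± 0.28 (SE; edgeR adjusted p = 2.85e-05). These rest on 66, 30 and 57 counts in treated libraries, the fewest of any tested member. The span of Srsf4 overlaps A930004J17Rik on the same strand over 4610 bases, with 18 counts in treated and 386 in control libraries in all. It also overlaps Gm12992 on the opposite strand, with 0 and 35 counts. The part of these overlaps in the fall was not tested.

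Srsf1, Srsf2 and Srsf3 fell by similar amounts. Srsf1, the founding member known as SF2/ASF, had 73.6, 69.5 and 92.1 CPM in treated libraries and 284, 299 and 284 CPM in control libraries. Its log2 fold change was −1.88 ± 0.16 (adjusted p = 1.84e-06), and the groups were far apart. Srsf2, the nuclear speckle protein SC35, had 74.2, 60.02 and 72.4 CPM in treated and 257, 220 and 235 CPM in control libraries, a change of −1.78 ± 0.15 (adjusted p = 2.1e-06). The opposite-strand gene Mettl23 overlaps the whole Srsf2 span of 3194 bases, with 670 counts in treated and 517 in control libraries in all. Mfsd11, also on the opposite strand, overlaps 655 bases, with 572 and 1293 counts. Strand use in counting was not given in the sources used here, and the part of these overlaps in the Srsf2 values was not tested. Srsf3, the smallest SR protein and a link between splicing and mRNA export, had 106, 75.1 and 74.7 CPM in treated and 295, 273 and 301 CPM in control libraries. Its change was −1.76 ± 0.18 (adjusted p = 5.39e-06). Without the gene length trend Srsf3 was at −0.75 and Srsf1 at −1.18, both still called lower.

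Srsf6 had the most counts of any SR protein in both groups and did not pass the test. It encodes SRp55, a close relative of Srsf4. It had 382, 428 and 505 CPM in treated libraries and 447, 409 and 419 CPM in control libraries, and the groups overlap. Its log2 fold change was 0.044 ± 0.16 (adjusted p = 0.814) under TMM, lower at −0.98 with library size alone and higher at 0.57 with the length trend removed, past the threshold in both of these.

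The other SR proteins fell less. Srsf10, which turns into a splicing repressor when it loses its phosphates, changed by −1.05 ± 0.19, with means of 51.9 ± 9.3 CPM in treated and 107 ± 20.4 CPM in control libraries (SD, n = 3 each). Srsf9 changed by −0.76 ± 0.20, Srsf5 by −0.66 ± 0.17 and Srsf11 by −0.64 ± 0.15. Srsf7, a zinc knuckle protein that shuttles to the cytoplasm, changed by −0.38 ± 0.14 (adjusted p = 0.029), and its call was lost without control replicate 1 (adjusted p = 0.06) or control replicate 3 (0.0913) and with median-ratio size factors. It was called lower in 15 of the 24 settings. With the length trend removed, Srsf11 was higher at 0.39 and called, Srsf5 (−0.35) and Srsf10 (−0.16) were not called, and Srsf9 (−1.46) and Srsf7 (−0.78) lay further below. Srsf12, a relative of Srsf10, had 2, 1 and 0 counts in treated libraries and 0 in each control library, too few to test.

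**Figure D2:**
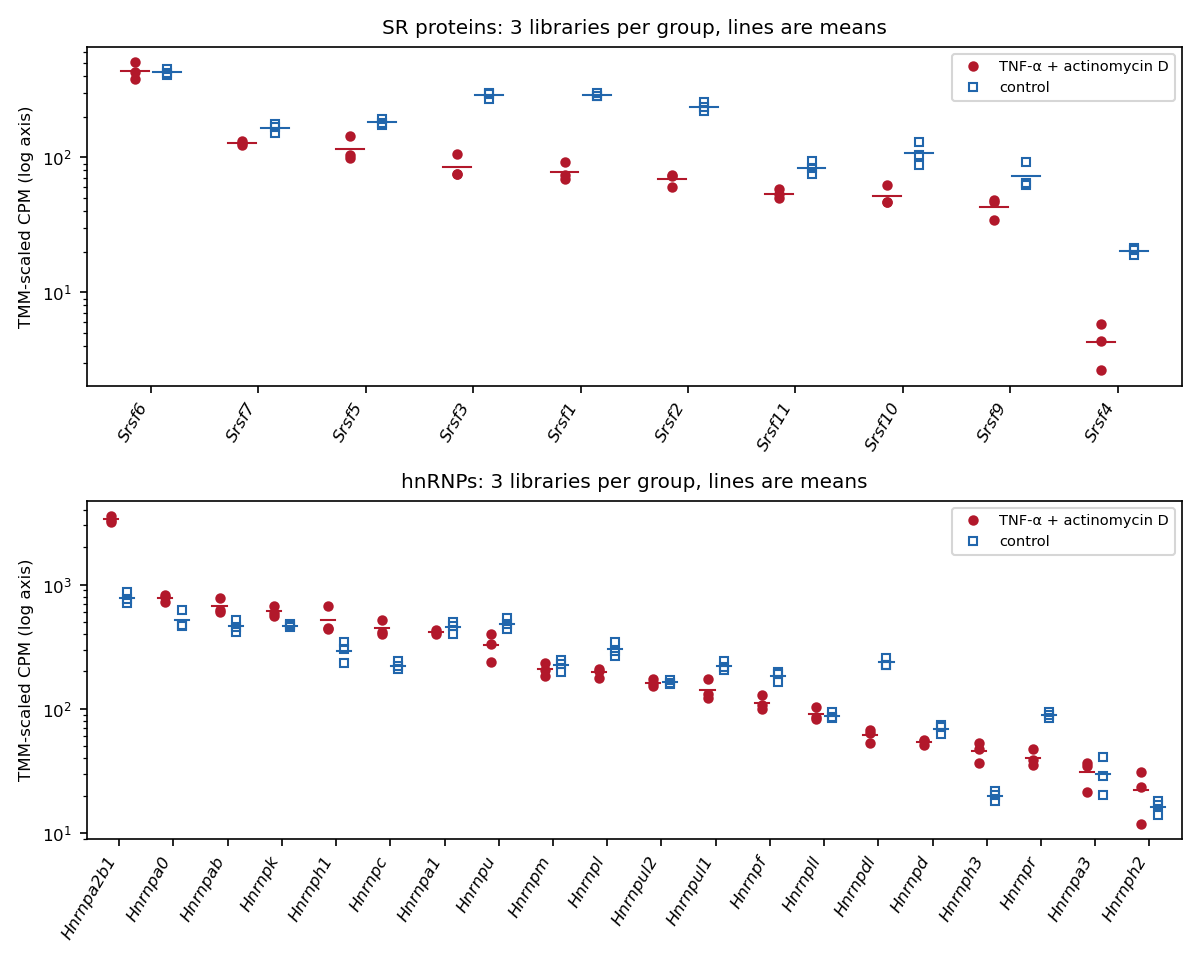
TMM-scaled CPM on a log axis for each tested SR protein (upper panel) and hnRNP (lower panel), with 1 point per library, treated as filled circles to the left of control as open squares, and lines at the group means. Srsf4, Srsf1, Srsf2 and Srsf3 show treated points wholly below control points, and Hnrnpa2b1 stands at 3168 to 3554 CPM in treated and 705 to 873 CPM in control libraries.

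Hnrnpa2b1 showed the largest rise of any member and had the most counts of any member in both groups. The gene, on chr6:51460932-51469894 (minus strand), encodes A2 and B1, RNA-binding proteins that sort mRNAs for transport. Its level was 3554, 3168 and 3316 CPM in treated libraries, against 705, 873 and 771 CPM in control libraries. Every treated library lies above every control library, and the log2 fold change was 2.09 ± 0.18 (adjusted p = 2.03e-06). It was higher and called with library size alone (1.04) and with the length trend removed (2.95), and below 0 without a call when ribosomal protein genes (−0.32) or mitochondrially encoded genes (−0.036) were held equal.

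Hnrnph3, Hnrnpc and Hnrnph1 rose under TMM. Hnrnph3, a small relative of the G-run binding H proteins, had 52.9, 36.5 and 47.5 CPM in treated and 20.1, 21.7 and 18.2 CPM in control libraries, a change of 1.19 ± 0.19 (adjusted p = 0.000173). Hnrnpc, whose tetramers package nascent RNA and bind uridine tracts, had 517, 418 and 400.2 CPM in treated and 241, 208 and 219 CPM in control libraries, a change of 1.00 ± 0.16 (adjusted p = 0.000174). Hnrnph1, which binds G-runs near splice sites, had 442, 448 and 672 CPM in treated and 233, 346 and 300.4 CPM in control libraries, a change of 0.83 ± 0.21 (adjusted p = 0.00438). Groups did not overlap for any of these. With library size alone the values were 0.15 for Hnrnph3, −0.050 for Hnrnpc and −0.20 for Hnrnph1, none of them called, and all 3 were called lower when either ribosomal protein genes or mitochondrially encoded ones were held equal. Hnrnph3 shares part of its span with Rufy2 on the opposite strand.

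Smaller rises under TMM were those of Hnrnpa0, Hnrnpab and Hnrnpk, each of which was called lower with library size alone. Hnrnpa0, an intronless gene for a protein that binds AU-rich elements, averaged 781 ± 52.2 CPM in treated and 523 ± 91.3 CPM in control libraries, a change of 0.58 ± 0.17 against −0.46 by library size. Hnrnpab averaged 673 ± 99.2 CPM in treated and 462 ± 53.7 CPM in control libraries, a change of 0.54 ± 0.17 against −0.50. Hnrnpk, a KH domain protein that binds C-rich sequence, averaged 608 ± 61.7 CPM in treated and 468 ± 11.7 CPM in control libraries, a change of 0.38 ± 0.15 (adjusted p = 0.0418) against −0.67. The call for Hnrnpa0 was lost without control replicate 2 (adjusted p = 0.0549) or 3 (0.0881). For Hnrnpab it was lost without treated replicate 1 (0.0519), control replicate 2 (0.07) or control replicate 3 (0.0814). For Hnrnpk it was kept only without treated replicate 3. Of the 24 settings, Hnrnpa0 was called higher in 17, Hnrnpab in 16 and Hnrnpk in 14, and each was called lower in 3.

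Hnrnpdl, Hnrnpr, Hnrnpf and Hnrnpul1 had the largest falls among hnRNPs. Hnrnpdl, on chr5:100033577-100039664 (minus strand), encodes a relative of the AU-rich element binding protein AUF1. It had 52.98, 64.1 and 67.6 CPM in treated libraries and 225, 258 and 227 CPM in control libraries, a change of −1.94 ± 0.16 (adjusted p = 1.43e-06). No treated library reached the control range. Hnrnpr, a relative of Syncrip with roles in neurons, had 35.3, 38.5 and 47.3 CPM in treated and 83.6, 94.9 and 89.4 CPM in control libraries, a change of −1.14 ± 0.16 under TMM that was higher at 0.44 with the length trend removed. Its deposited length, 22199 bases, is the longest of the members.

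Hnrnpf, a G-run binding protein closely related to Hnrnph1, had 130.1, 108 and 99.0 CPM in treated and 199.5, 165 and 189.6 CPM in control libraries, a change of −0.72 ± 0.16 (adjusted p = 0.00164). Hnrnpul1, known from the DNA damage response, had 132, 123 and 173 CPM in treated and 243, 206 and 217 CPM in control libraries, a change of −0.64 ± 0.17 that was higher at 0.38 with the length trend removed. The groups did not overlap for either gene. Hnrnpl, which binds CA repeats, changed by −0.61 ± 0.16, Hnrnpu, the scaffold attachment factor, by −0.58 ± 0.20 and Hnrnpd, which encodes AUF1, by −0.37 ± 0.15. With the length trend removed these 3 were above 0, at 0.15, 0.63 and 0.58. The call for Hnrnpu was lost without control replicate 2 (adjusted p = 0.0525), and that for Hnrnpd without control replicate 1 (0.0897), 2 (0.0854) or 3 (0.0557). Hnrnpd was called lower in 11 of the 24 settings and higher in 2, with no call under median-ratio (0.178) or upper-quartile factors (0.18), DESeq2 (0.192), the filter at 1 CPM (0.069) or the FPKM fits.

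For 6 hnRNPs no change was called under TMM, and all 6 overlapped between groups. Hnrnpa1, the classical antagonist of Srsf1 in splice site choice, had 413, 403 and 432 CPM in treated and 403, 503 and 466 CPM in control libraries (−0.13 ± 0.15). Hnrnpm had 183, 206 and 236 CPM in treated and 199, 246 and 231 CPM in control libraries (−0.11 ± 0.16). A protein-coding gene listed as 2-Mar overlaps it on the same strand over 1169 bases. That gene had 2260 counts in treated and 1559 in control libraries in all, and the part of the overlap was not tested. Hnrnpul2 had 161, 153 and 173 CPM in treated and 169.8, 162 and 159.7 CPM in control libraries (−0.012 ± 0.14). Under library size alone Hnrnpa1, Hnrnpm and Hnrnpul2 were each called lower, as were Hnrnpll and Hnrnpa3. Hnrnpll, known for CD45 splicing in lymphocytes, had 85.4, 83.3 and 104 CPM in treated and 83.8, 95.0 and 85.7 CPM in control libraries (0.046 ± 0.15). Hnrnpa3 had 21.5, 36.7 and 34.6 CPM in treated and 20.1, 40.9 and 28.7 CPM in control libraries (0.049 ± 0.28). Hnrnph2 had 11.8, 23.3 and 31.1 CPM in treated and 13.9, 18.2 and 16.8 CPM in control libraries (0.45 ± 0.31), and was called higher without treated replicate 1, its lowest treated library (0.65, adjusted p = 0.0239), while its change was 0.066 (adjusted p = 0.851) without treated replicate 3, its highest.

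**Figure D3:**
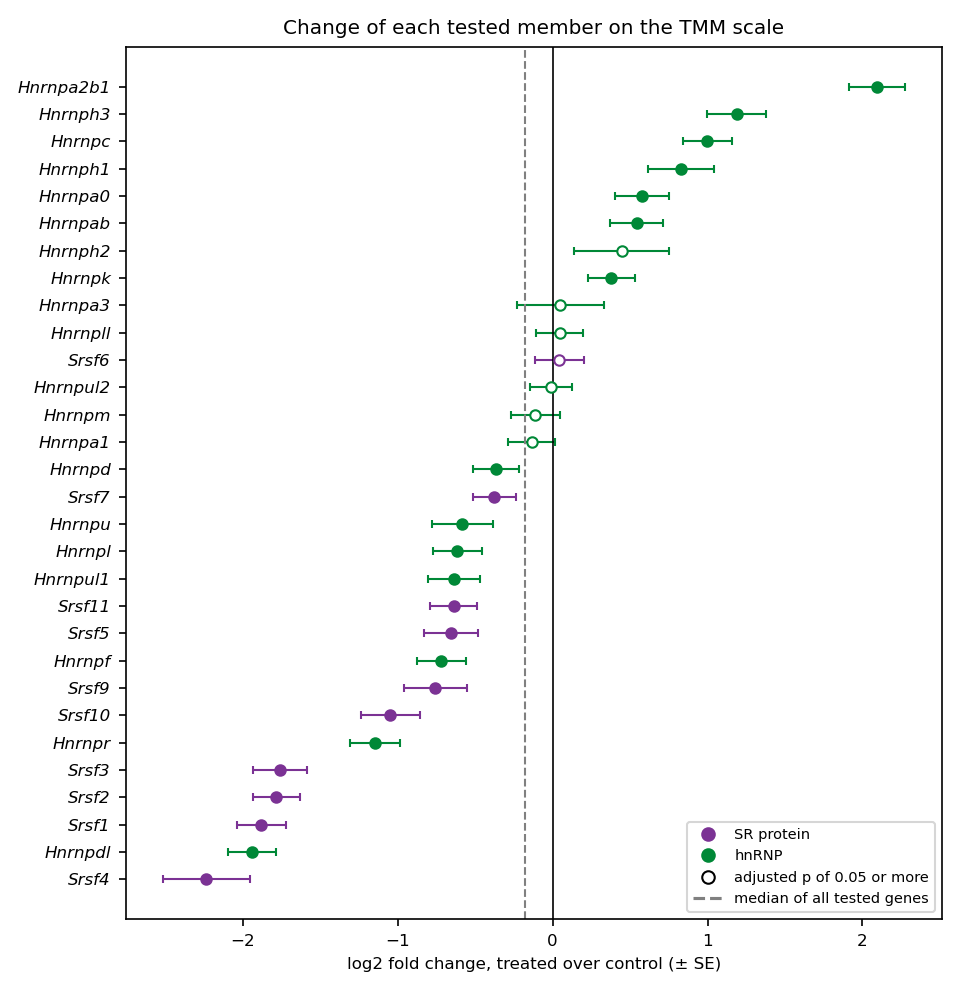
Log2 fold change of treated over control libraries for each tested member on the TMM scale, with bars for the standard error, SR proteins in purple, hnRNPs in green and open points for members past no threshold. Hnrnpa2b1 (2.09) stands highest and Srsf4 (−2.24) lowest, and the dashed line marks the median of all tested genes (−0.18).

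Ratios between paralogs within a library do not depend on the scaling, though a trend with gene length remains in them. Of 17 pairs, 16 had enough counts in both genes, and in 14 the treated and control ratios did not overlap; levels of single genes did not overlap for 77.9% of all tested genes, and no such share was computed for ratios of other gene pairs. With 3 libraries against 3, the exact two-sided permutation test cannot go below 0.1; each of the 14 reached 0.1, or 0.114 after Benjamini-Hochberg adjustment over the 16 pairs. Some genes, among them Hnrnpa2b1, Srsf6 and Hnrnph1, recur across pairs, so the pairs are not independent of each other. Levels here are counts per base of the deposited gene length.

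The ratio of Srsf4 to Srsf6 was 0.0206, 0.00838 and 0.0116 in treated libraries, against 0.0620, 0.0620 and 0.0685 in control libraries, a log2 difference of −2.34. That of Hnrnpa1 to Hnrnpa2b1 was 0.243, 0.266 and 0.272 in treated and 1.19, 1.203 and 1.26 in control libraries. A control ratio above 1 rests on the deposited lengths, 3153 bases for Hnrnpa1 and 6584 for Hnrnpa2b1. By counts alone Hnrnpa1 was the lower of the pair in control libraries too, with 9723, 12313 and 11786 against 17029, 21365 and 19522. The lengths cancel in the shift of the ratio between groups, though a trend of the counts with gene length can still enter it. Hnrnph1 to Hnrnpf was 1.77, 2.17 and 3.54 in treated and 0.608, 1.095 and 0.826 in control libraries, a difference of 1.54. The ratios of the AUF1 gene to its relative also shifted: Hnrnpd to Hnrnpdl was 0.676, 0.574 and 0.492 in treated and 0.217, 0.182 and 0.180 in control libraries, a difference of 1.58. Srsf3 to Srsf7, the pair that recruits the export receptor Nxf1, differed by −1.40, and Srsf1 to Srsf9 by −1.14. In both pairs the first gene has the greater deposited length, 7899 against 2279 bases and 5710 against 1653 bases. These shifts were not kept with the length trend removed, where Srsf3 and Srsf7 fell by similar amounts and Srsf9 fell further than Srsf1. Hnrnpa3 and Hnrnpa0 to Hnrnpa2b1 differed by −2.03 and −1.51. The ratios Hnrnph3 to Hnrnph1 (0.36) and Hnrnpu to Hnrnpul1 (0.038) overlapped between groups (exact permutation p = 0.3 and 0.8).

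**Figure D4:**
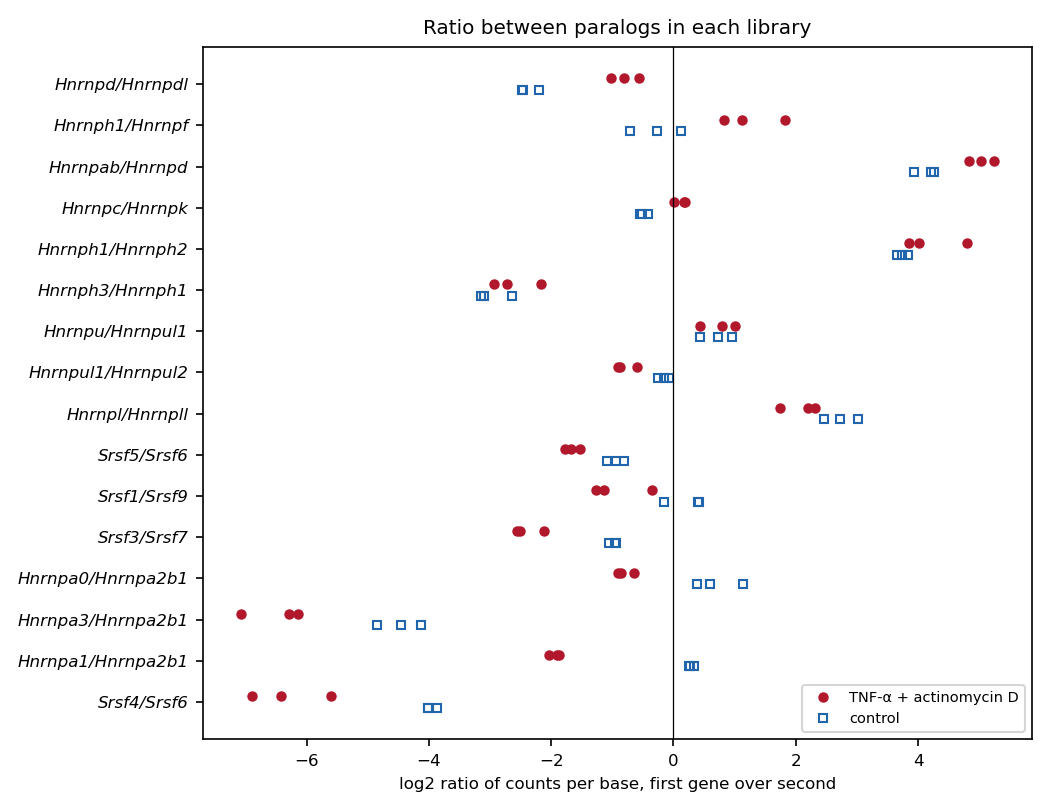
Log2 ratio of counts per base between paired members in each library, treated as filled circles drawn above control as open squares. Groups are separated in 14 of 16 pairs, with the largest negative differences for Srsf4 to Srsf6 (−2.34), Hnrnpa1 to Hnrnpa2b1 (−2.23) and Hnrnpa3 to Hnrnpa2b1 (−2.03) and the largest positive one for Hnrnpd to Hnrnpdl (1.58). Pairs that share a gene, such as Hnrnpa2b1, are not independent of each other.

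Shares within each family differed too, and both shares and ranks depend on the deposited gene lengths. Per base, Hnrnpa2b1 held 29.8% ± 0.4 of the hnRNP total in treated libraries, rank 1 of 20, and 10.4% ± 1.3 in control libraries, rank 4 (SD, n = 3 each). Hnrnpa1 held 7.77% ± 0.38 in treated and 12.7% ± 1.6 in control libraries, and Hnrnpdl 0.754% ± 0.119 in treated and 4.30% ± 0.36 in control libraries. Hnrnpa0 (17.2% ± 1.5 in treated and 17.1% ± 2.6 in control libraries) and Hnrnpab (14.2% ± 1.5 in treated and 14.5% ± 1.5 in control libraries) held shares that differed by less than the spread between libraries. Among SR proteins, Srsf6 held 34.3% ± 3.1 in treated and 19.7% ± 0.1 in control libraries, Srsf2 8.79% ± 0.92 in treated and 17.8% ± 0.7 in control libraries, and Srsf1 5.16% ± 0.49 in treated and 11.3% ± 0.8 in control libraries.

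**Figure D5:**
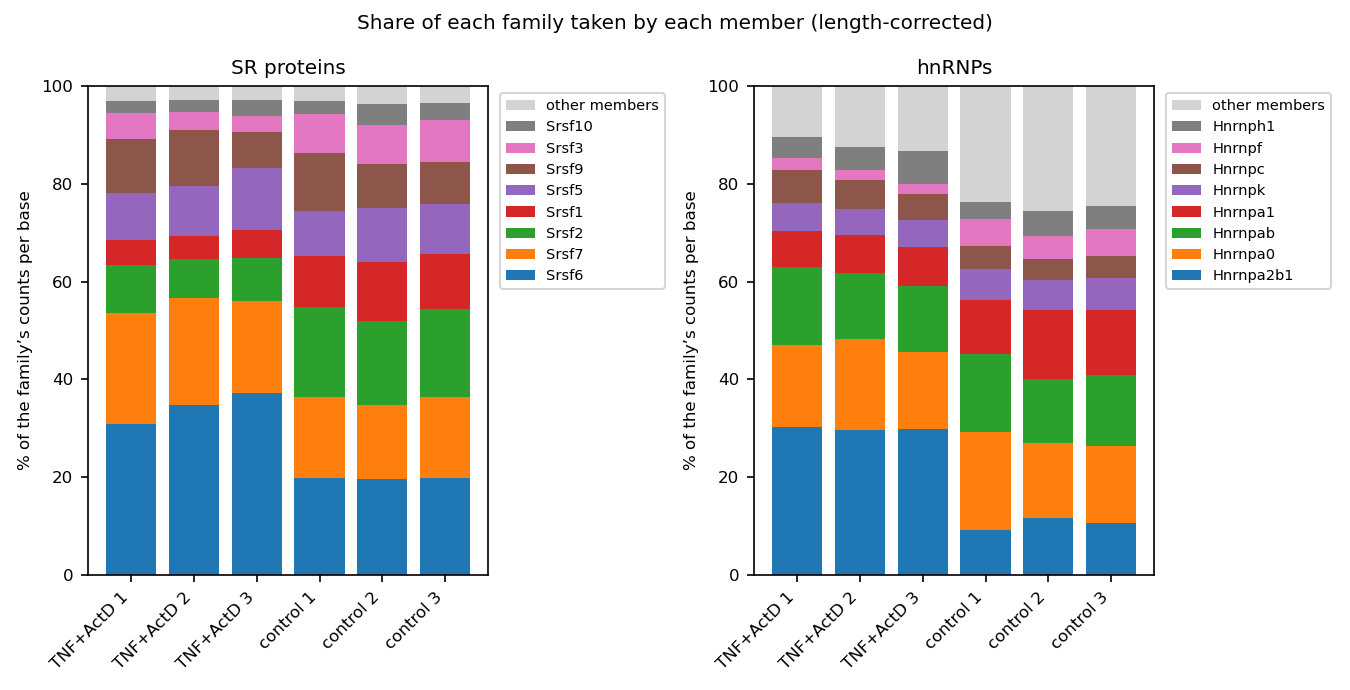
Share of each family's counts per base taken by its 8 leading members in each library, with the other members in grey, treated libraries to the left of control libraries. Srsf6 and Hnrnpa2b1 take wider bands in treated libraries (34.3% and 29.8% on average) than in control libraries (19.7% and 10.4%).

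Nonsense-mediated decay transcripts are annotated for many members in the GENCODE annotation of GRCm38. They occur for 9 of 11 SR proteins and 10 of 20 hnRNPs, beside 29.5% of all tested protein-coding genes. The deposited counts are per gene, so they do not tell decay transcripts from coding ones. An ATTTA pentamer, the core of AU-rich elements, lies in the 3′ untranslated region of 83.3% of the members with an annotated one, beside 64.9% of tested protein-coding genes. The median length of that region was 1114.5 bases in members and 930.5 bases in tested protein-coding genes, and the part of length in the difference was not tested. Some members whose mRNA rose and some whose mRNA fell carry the pentamer: Hnrnpa2b1 has 3 in 467 bases and Srsf1 has 10 in 4149 bases. Srsf4 and Hnrnpr, which fell under TMM, have 0.

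Sequence upstream of the start was taken from RefSeq (GRCm38.p6), which had an entry for 29 of 31 members. A GC box (GGGCGG, either strand) lay within 250 bases upstream in 79.3% of these, beside 32.7% of 32851 promoters of the table, and a CCAAT box (CCAAT) in 51.7%, beside 33.8%. The median GC content was 65.2% for members and 52.4% for all promoters. A single start was used per member, while all promoters keep every start of a gene and are not limited to tested genes. The sets are therefore unlike. A consensus NF-kB site was in none of the members and in 0.356% of all promoters, and the CRE TGACGTCA in none of the members and 1.55% of all. The AP-1 site TGANTCA was in 3.45% of members and 6.75% of all promoters, the E-box CACGTG in 6.9% of members and 6.02% of all, and TATAAA in 10.3% of members and 12.4% of all. The motifs were chosen after the values were seen and were searched on both strands. Shown are the members with the highest and the lowest log2 fold change in each family whose window lies wholly outside the deposited gene, to set a gene that fell beside one that did not. Capitals mark GC boxes and CCAAT boxes on either strand.
Srsf6, chr2:162931258-162931507, plus strand, log2 fold change 0.044: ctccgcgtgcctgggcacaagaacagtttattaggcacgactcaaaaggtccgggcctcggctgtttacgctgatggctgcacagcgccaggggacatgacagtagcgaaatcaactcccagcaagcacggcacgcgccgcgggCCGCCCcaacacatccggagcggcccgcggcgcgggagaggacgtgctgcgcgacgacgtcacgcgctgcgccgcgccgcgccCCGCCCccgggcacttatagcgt
Srsf1, chr11:88047123-88047372, plus strand, log2 fold change −1.88: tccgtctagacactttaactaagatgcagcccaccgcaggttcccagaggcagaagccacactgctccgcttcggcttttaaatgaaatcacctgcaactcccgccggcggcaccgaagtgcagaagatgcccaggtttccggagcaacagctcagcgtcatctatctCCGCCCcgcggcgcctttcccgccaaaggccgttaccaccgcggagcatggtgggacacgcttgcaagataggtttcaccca
Hnrnpa2b1, chr6:51469895-51470144, minus strand, log2 fold change 2.09: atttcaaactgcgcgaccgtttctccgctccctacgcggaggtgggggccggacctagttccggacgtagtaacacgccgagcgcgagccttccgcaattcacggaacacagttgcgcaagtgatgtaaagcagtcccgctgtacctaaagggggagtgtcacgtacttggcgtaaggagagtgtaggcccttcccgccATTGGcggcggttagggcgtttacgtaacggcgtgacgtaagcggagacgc
Hnrnpr, chr4:136310692-136310941, plus strand, log2 fold change −1.14: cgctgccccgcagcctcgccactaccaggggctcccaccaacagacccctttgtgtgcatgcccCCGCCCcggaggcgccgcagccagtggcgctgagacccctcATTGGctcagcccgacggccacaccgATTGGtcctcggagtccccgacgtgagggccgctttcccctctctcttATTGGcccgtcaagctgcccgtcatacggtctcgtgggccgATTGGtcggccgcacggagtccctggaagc
In the window of Srsf6 there were 2 GC boxes, in that of Srsf1 there was 1, Hnrnpa2b1 had 1 CCAAT box, and Hnrnpr had 4 CCAAT boxes and 1 GC box. A match is a run of letters, and binding was not measured.

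Pseudogenes could share reads with some members. At 90% identity over 300 bases, 72 pseudogene transcripts aligned to 14 members. For Hnrnpa3, 35 such copies held 191% of the member's own counts in treated and 216% in control libraries, so its level is uncertain; with their counts added its change was −0.066. Copies of Hnrnpk held 16.6% of its counts in treated and 14.9% in control libraries, those of Srsf5 7.19% in treated and 5.71% in control libraries, those of Hnrnpa1 6.57% in treated and 8.74% in control libraries, and those of each other member at most 3.39% in either group.

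Genes that act with SR proteins and hnRNPs were counted from lists. Of 26 tested SR-related coactivators, 21 fell (80.8%), 3 rose (11.5%) and 2 did not pass, with a median log2 fold change of −0.95 beside −0.18 for all tested genes, of which 40.2% fell and 34.6% rose. Scaf8, which binds the tail of RNA polymerase II, fell by 4.07 ± 0.32 on the log2 scale, to 2.61 CPM in treated against 44.6 CPM in control libraries, and was called lower under each setting run. Tra2a, a splicing activator, rose by 1.05 ± 0.17 under TMM, with no call by library size alone. It was called lower with either ribosomal protein genes (−1.32) or the mitochondrially encoded ones (−1.09) held equal. Among 14 tested kinases, phosphatase subunits and importins of SR proteins, 10 fell (71.4%) and 4 rose (28.6%), with a median of −1.06. The kinase gene Dyrk1a fell by 3.58 ± 0.22, to 2.88 CPM in treated against 34.6 CPM in control libraries. The phosphatase 1 subunit gene Ppp1ca rose by 2.06 ± 0.20 under TMM, to 979 CPM in treated against 235 CPM in control libraries. It was called lower with ribosomal protein genes held equal (−0.37) and lay below 0 without a call with the mitochondrially encoded ones held equal (−0.12).

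Of 30 tested RNA-binding proteins of hnRNP type outside the Hnrnp symbols, 10 rose (33.3%), 14 fell (46.7%) and 6 did not pass, with a median of −0.36, a split near that of all tested genes (34.6% higher and 40.2% lower). Cirbp, the cold-inducible RNA-binding protein, rose by 3.20 ± 0.15, to 177 CPM in treated against 19.2 CPM in control libraries, and was above 0 under each setting run, from 0.81 to 3.37. Fubp3, a single-strand DNA and RNA binding protein, fell by 1.88 ± 0.17. Of 18 tested nonsense-mediated decay factors, 6 rose (33.3%), 9 fell (50%) and 3 did not pass, again beside 34.6% and 40.2% of all genes. Magoh, of the exon junction complex, rose by 1.81 ± 0.19 under TMM. It was called lower with ribosomal protein genes held equal (−0.62) and was below 0 without a call with the mitochondrially encoded ones held equal (−0.35). The cap-binding gene Ncbp1 fell by 2.81 ± 0.18. These directions depended on the fit. With ribosomal protein genes held equal, all 26 coactivators, all 14 of the kinase, phosphatase and importin list, 29 of the 30 hnRNP-type genes and all 18 decay factors were lower, beside 82.4% of all tested genes. With the gene length trend removed, 12 coactivators were lower and 7 higher, 4 lower and 6 higher in the kinase list, 8 lower and 16 higher in the hnRNP-type list, and 7 lower and 6 higher among decay factors, beside 34.3% of all genes lower and 37.2% higher.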

How the data were processed

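Total RNA of mouse L929 cells was sequenced after standard Illumina library preparation, per the labels, in 3 treated and 3 control libraries. The authors deposited whole-number counts per gene and a table of FPKM values. Per the submitters' processing notes, the builds mm10 and GRCm38 and the tools DESeq2 1.24.0, RSEM 1.3.1 and HISAT2 2.1.0 were named, without role or order; strand use and the treatment of reads shared between copies are not given in the sources used here. Each deposited FPKM value equalled the count over the gene's length times 1 constant per library; gene length, of type other and in bases, is deposited in both tables per the file headers. The constant was 0.635 to 0.719 of the scaling by library total in control and 1.22 to 1.64 in treated libraries. Control columns carry the genotype name and were matched to the control samples because the remaining columns name TNF-α.

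Genes were kept by filterByExpr, leaving 13290 of 24708 with a count, scaled by TMM and tested with edgeR 4.0.16 in R 4.3.3 (glmQLFit with robust estimation, glmQLFTest), treated against control, with Benjamini-Hochberg adjustment over all tested genes and a threshold of 0.05. Standard errors were obtained from the log2 fold change and F, as its size over the square root of F. CPM values are TMM-scaled, except marker sums, which use library totals. Log2 CPM used a prior count of 2. Limma 3.58.1 and DESeq2 1.42.0 served alternatives, as did limma on log2(FPKM + 1) and log2(FPKM + 0.1). The length offset came from a lowess trend with span 0.3 in each library. Pseudogene copies were aligned with BLAST 2.17.0. Figures used matplotlib 3.10.9 in Python 3.11.15. Fits were tested on simulated data. The bound on false calls was first exceeded in a single simulated draw and was then set over 5 draws, where it was met. The simulation changed only a small part of the genes, evenly in both directions, whereas 74.8% of tested genes were called in these data. It therefore does not test the scaling in such a setting.

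The members and lists were chosen with earlier results of these data known. Members in full are up to 4 called rises and 4 called falls per family, the most abundant member and those not called; for each list, the largest called rise and fall with a mean of at least 1 CPM. Replicate numbers of treated and control libraries are not stated to share a culture.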

Additional observations from a re-analysis of the deposited data

How the results depend on the processing

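The direction of most hnRNPs depended on the scaling and on the gene length trend, while 6 members were called lower under all 24 settings; the cause was not tested. The all-gene median moved by −1.04 with library size alone, by −2.39 with ribosomal protein genes and −2.15 with mitochondrially encoded genes held equal, by 0.11 with median-ratio factors, by 0.16 with upper-quartile factors, by −0.12 with no filter and by 0.25 with the length offset. Of the calls over all genes, 46.3% were higher under TMM, 22.3% by library size, 2.2% and 3.13% with those gene classes held equal and 52% with the offset.

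With library size alone, 2276 genes were called higher in all, 1 hnRNP higher and 15 lower, and the direction turned for Hnrnpa0 (−0.46), Hnrnpab (−0.50), Hnrnpk (−0.67), Srsf6 (−0.98), Hnrnph1 (−0.20), Hnrnpc (−0.050), Hnrnpll (−0.99), Hnrnpa3 (−0.9996) and Hnrnph2 (−0.56). With ribosomal protein genes held equal, 247 genes were higher and 10956 lower, 0 hnRNPs higher and 19 lower, and values turned for Hnrnpa2b1 (−0.32), Hnrnpa0 (−1.81), Hnrnpab (−1.86), Hnrnpk (−2.02), Srsf6 (−2.32), Hnrnph1 (−1.54), Hnrnpc (−1.41), Hnrnpll (−2.33), Hnrnph3 (−1.21), Hnrnpa3 (−2.37), Hnrnph2 (−1.89), Tra2a (−1.32), Ppp1ca (−0.37), Magoh (−0.62) and Thoc7 (−0.68). With mitochondrially encoded genes held equal, 334 genes were higher and 10333 lower, 0 hnRNPs higher and 19 lower, and values turned for Hnrnpa2b1 (−0.036), Hnrnpa0 (−1.60), Hnrnpab (−1.63), Hnrnpk (−1.78), Srsf6 (−2.13), Hnrnph1 (−1.30), Hnrnpc (−1.16), Hnrnpll (−2.10), Hnrnph3 (−0.96), Hnrnpa3 (−2.04), Hnrnph2 (−1.71), Tra2a (−1.09), Ppp1ca (−0.12), Magoh (−0.35) and Thoc7 (−0.38).

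The length offset gave 2 SR proteins higher, 16 hnRNPs higher and 2 lower, and turned Hnrnpu (0.63), Hnrnpl (0.15), Hnrnpul1 (0.38), Hnrnpm (0.39), Hnrnpul2 (0.70), Srsf11 (0.39), Hnrnpr (0.44) and Hnrnpd (0.58). Deviations of same-numbered libraries had correlations of 0.22, −0.137 and 0.029. With 3 libraries per group these cannot decide whether the numbers pair the libraries. A replicate block gave 8 SR proteins lower, 6 hnRNPs higher and 6 lower and turned no member; with the offset added it gave 2 SR proteins higher, 14 hnRNPs higher and 2 lower, with Hnrnpu at 0.62, Hnrnpl 0.14, Hnrnpul1 0.39, Hnrnpm 0.40, Hnrnpul2 0.70, Srsf11 0.39, Hnrnpr 0.45 and Hnrnpd 0.57.

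Members with no call turned at small values. Hnrnpul2 was at 0.10 with median-ratio factors and with DESeq2, 0.15 with upper-quartile factors, 0.040 with at least 1 CPM in 3 libraries, 0.063 on log2(FPKM + 1) with either filter and 0.065 on log2(FPKM + 0.1). With upper-quartile factors Hnrnpa1 was at 0.024 and Hnrnpm at 0.048. With no filter, 4 hnRNPs were higher, and Srsf6 (−0.11), Hnrnpll (−0.11) and Hnrnpa3 (−0.11) turned. Chosen after the data were seen, adding aligned pseudogene copies put Hnrnpa3 at −0.066, and adding pseudogenes described as copies turned no member.

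Leaving out each library in turn left 8 to 9 SR proteins lower, 4 to 7 hnRNPs higher (4 without control replicate 2 or 3) and 5 to 7 lower. Over these fits Srsf6 ran from −0.11 to 0.054, Hnrnpll from −0.11 to 0.073 and Hnrnpa3 from −0.20 to 0.31. The log2 difference of the ratio Hnrnpu/Hnrnpul1 ran from −0.096 (without control replicate 1) to 0.19 and was −0.090 without treated replicate 2, and 14 or 15 of 16 paralog ratios did not overlap. Depth limits Srsf12 and, in treated libraries, Srsf4.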

Other observations

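Splicing factors known for tissue-regulated programmes and mRNA export factors were counted from lists too. Of 16 tested tissue-regulated factors, 10 fell (62.5%, beside 40.2% of all tested genes), none rose and 6 did not pass under TMM, with a median log2 fold change of −0.94 beside −0.18 for all tested genes; with the gene length trend removed, 5 were higher and 4 lower, beside 37.2% and 34.3% of all genes. Rbm5, a splicing regulator of apoptosis genes, had the largest fall, to 4.38 CPM in treated against 61.5 CPM in control libraries (−3.80 ± 0.34; edgeR adjusted p = 3.89e-06), and was called lower under each setting run. Of 18 tested export factors, 6 rose (33.3%, beside 34.6% of all tested genes), 5 fell (27.8%, beside 40.2%) and 7 did not pass, with a median of 0.16. Thoc7, of the THO complex, rose by 1.75 ± 0.16 to 95.1 CPM in treated against 28.2 CPM in control libraries. It was called lower with ribosomal protein genes held equal (−0.68) and lay below 0 without a call with the mitochondrially encoded ones held equal (−0.38). With ribosomal protein genes held equal, all 16 tissue-regulated factors and 17 of the 18 export factors were lower, beside 82.4% of all tested genes. Zc3h11a had the largest fall, to 0.727 CPM in treated against 6.57 CPM in control libraries (−3.13 ± 0.52), and its symbol stands on more than 1 gene identifier.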
